A study of Mus musculus with 6 samples.

Results

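The baseline transcriptome of neural stem cells (NSCs) was described from the 3 control cultures of a series of 6 RNA-seq libraries, namely those titled Control. The 3 libraries were selected by their titles, and no genotype comparison was made. The gene lists and families were chosen with earlier results of these data known. The cells were dissected from the V-SVZ (ventricular-subventricular zone), a germinal niche beside the lateral ventricles, of neonatal mice with unmutated (wt/wt) Tsc2 alleles. All 3 cultures came from pups that carried a Nestin-driven, tamoxifen-inducible Cre recombinase (Nes-cre/ERT2) and a tdTomato red fluorescent reporter at Rosa26. The pups had received tamoxifen, so the baseline is that of induced Cre-positive control cells and not of untreated animals. The paper's methods also list EdU, a label of DNA synthesis, in the injection of Nestin-Cre pups. The cells were dissected 1 week after tamoxifen and grown attached to laminin and poly-D-lysine with EGF, FGF, B-27 without vitamin A and heparin. The sources used here did not give the sex of each culture's pups or whether a culture came from 1 pup or several.

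Neural stem cells of the V-SVZ are glia that descend from radial glia and keep dividing after birth. They are known by intermediate filaments such as vimentin and nestin, by the transcription factor SOX2 and by glial transporters and lipid carriers. In the animal they give rise to neuroblasts bound for the olfactory bulb and to oligodendrocytes and astrocytes, and growth factors hold them in a dividing, undifferentiated state in culture. EGF and FGF are also known to raise Olig2 in such cultures.

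Values were DESeq2-normalised counts per gene, which scale each library by a size factor. Library totals were 30.4, 29.2 and 29 in units of 1000000 for replicates 1, 2 and 3. Values were not whole numbers, so the depth in reads is known only as an estimate from the spacing of low values, about 55.5, 36.5 and 33.7 in units of 1000000, and replicate 1 was the deepest. Of 24972 gene names, 6780 were at 0 in all 3 cultures and 14100 had a mean of at least 10. Ranks by normalised count are given with no correction for length. Other comparisons of level between genes are per length, as TPM. TPM is a level per length scaled to a sum of 1000000 in each library. It was computed here from the normalised counts and the summed exon length of each gene. All values are given as mean ± SD over 3 cultures (n = 3). With 1 group no p-value was computed, and a sign test over 3 libraries could not go below 0.25.

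The 7 marker genes of the culture type were all abundant. By mean normalised count Vim, which encodes vimentin, ranked 8 of all genes, with 104024, 104759 and 89859 in replicates 1, 2 and 3. Ptprz1, a receptor phosphatase of radial glia and oligodendrocyte precursors, ranked 27, with 50437, 51375 and 50445. The glutamate transporter Slc1a3 (GLAST) ranked 44, the oligodendroglial factor Olig2 ranked 46, the brain lipid carrier Fabp7 ranked 53, Nes (nestin) ranked 65 and the stem cell factor Sox2 ranked 246. Nes was the widest in spread, with 43262, 28630 and 27523, a 1.57-fold range in which replicate 1 stood above the other cultures. Olig2 was among the narrowest, with 40006, 39997 and 41233.

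Per length the order of the 7 was different, and Ptprz1, at rank 27 by count, ranked 359 of all genes. Vim stood at 3690 ± 303 TPM, Fabp7 at 2498 ± 216, Olig2 at 1299 ± 38.5, Slc1a3 at 775 ± 70.3, Sox2 at 603 ± 28.5, Nes at 438 ± 107 and Ptprz1 at 413 ± 11.5. Nes and Ptprz1, next to each other in that order, did not differ beyond their spread. The median of the 7 was 775 TPM, against 1.47 TPM over all 24508 gene names with a length. In GENCODE M21, an annotation of the mm10 assembly, Vim lies on chromosome 2 at 13573927 to 13582826, Sox2 on chromosome 3 at 34650405 to 34652461, Nes on chromosome 3 at 87971078 to 87980451 and Olig2 on chromosome 16 at 91225457 to 91228677, all on the plus strand.

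**Figure D1:**
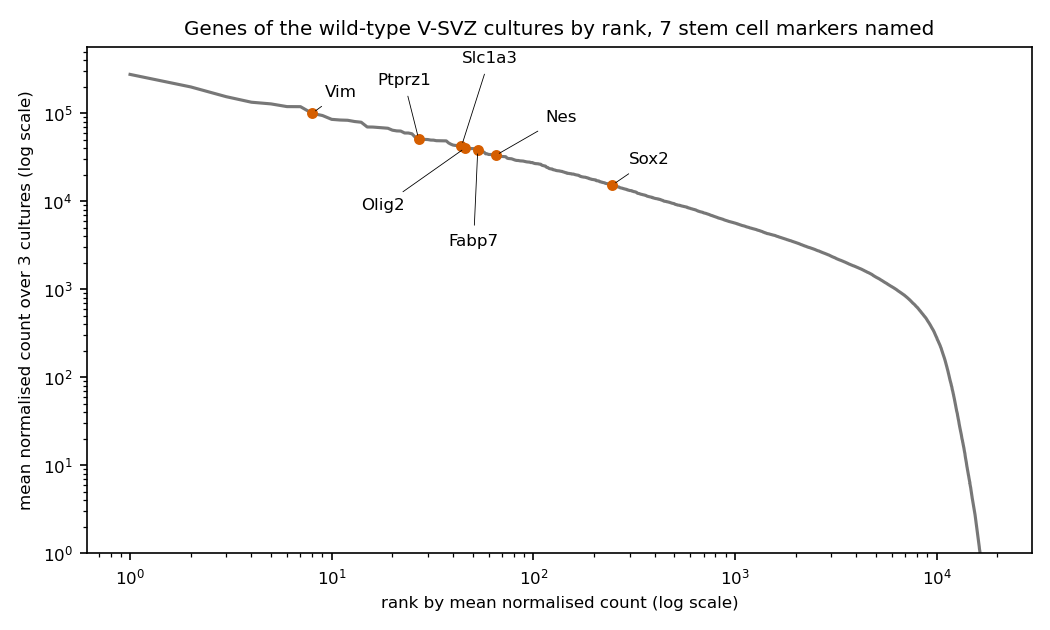
Mean normalised count of each gene over the 3 cultures (y axis, log scale) against its rank (x axis, log scale), as a line, with the 7 stem cell markers as points. Vim sits at rank 8 and Sox2 at rank 246, and the curve drops steeply beyond about the first 10000 ranks.

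Genes of translation and glycolysis stood high in the expressed programme. The first 20 genes held 7.25% of the mean total, the first 100 held 17.5% and the first 1000 held 49.3%. Eef1a1, the elongation factor that brings aminoacyl-tRNA to the ribosome, led with 279503, 288522 and 259158 normalised counts. Ckb, the brain creatine kinase, came next with 239159, 178267 and 178503, and replicate 1 stood above the others. Pkm, pyruvate kinase, followed with 133792, 168488 and 159339, and Eef2, the translocation factor of the ribosome, with 125322, 144474 and 129735. Igfbp2, a secreted carrier of insulin-like growth factors, held 118758 ± 12485. Olig1, a relative of Olig2, held 85082 ± 8295, so that a lineage factor stood at rank 10 by count and 22 per length. The other genes of the first 20 were Gapdh, Eno1, Vim, Scd2, Hsp90ab1, Gpi1, Ldha, Pgk1, Atp5b, Aldoa, Ccnd1, Actg1, Rps2 and Hspa8. Scd2 makes monounsaturated fatty acids, Ccnd1 is cyclin D1, and Hsp90ab1 and Hspa8 are chaperones.

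Per length, Eef1a1 stood at 12499 ± 732 TPM, Ckb at 10950 ± 1711, Gapdh at 6951 ± 1499 and Igfbp2 at 6618 ± 747. Short ribosomal protein genes entered the first 10, with Rpl41, Rplp1, Rps2 and Rpl13 beside Pkm and Eno1. Cytosolic ribosomal protein genes (86 names) summed to 6.07% ± 0.284 of the normalised counts and to 14.8% ± 0.681 of the TPM. The 15 enzymes that lead from glucose to lactate, a list chosen after their values were seen, summed to 3.39% ± 0.694 of the TPM, with 2.59% in replicate 1, 3.88% in replicate 2 and 3.69% in replicate 3. Protein-coding genes of the annotation held 98.8% ± 0.0463 of the normalised counts and long noncoding genes 0.449% ± 0.0426. Malat1, a nuclear RNA, led the latter with 18852, 28177 and 36381. The libraries were made from poly(A)-selected RNA, so these shares are not those of all RNA in the cells. Tsc2, the gene the series is about, held 3231, 2934 and 2794, and Tsc1, its partner in the complex that restrains mTORC1, held 1349, 1348 and 1253.

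Vim and Ckb upstream sequences are shown because both genes rank in the first 10 by count and carry TATAAA, bound by the TATA-binding protein. In both it lies between 10 and 45 bases before the start annotated by RefSeq. RefSeq (GRCm38.p6) gave the windows, each the last 50 bases before the start read 5′ to 3′ on the gene's strand, with TATAAA in capitals. The Vim window is chr2:13574261-13574310 on the plus strand and that of Ckb is chr12:111672339-111672388 on the minus strand. For Vim the RefSeq start differs from that of GENCODE M21, where the gene starts at 13573927, so by GENCODE this window lies inside the gene.
Vim: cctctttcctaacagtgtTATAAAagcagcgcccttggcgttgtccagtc
Ckb: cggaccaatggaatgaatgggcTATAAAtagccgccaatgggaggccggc
Of the first 20 genes, 15 had a window, and 2 of these (13.3%) held TATAAA at that distance, searched on the gene's strand only, against 2.45% of 27025 promoters. Over the first 100 genes with a window the count was 4. A match of letters is a description and does not show that a factor binds.

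Genes of 21 lists of cell types and programmes were counted, and those of stem cells, astrocytes and oligodendrocyte precursors passed most often among the lineages. Over all gene names with a length, 50.3% were at or above 1 TPM in all 3 cultures, and each count is to be read against that share. Of the neural stem and radial glial genes 42 of 46 passed, with a median of 82.3 TPM. Its leading members were Olig1 at 3196 ± 252 TPM, Cd81, a tetraspanin, at 1802 ± 52.5, Dbi, which binds acyl-CoA, at 1137 ± 157 and Ptn, a heparin-binding cytokine, at 1087 ± 79. Pax3, Tfap2c and Gsx2, patterning factors, were each under 0.3 TPM.

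Genes of astrocytes and quiescent stem cells were nearly all measured, 27 of 28, with a median of 79.8 TPM. Cst3, a protease inhibitor, led at 1419 ± 243 TPM, before Apoe, a lipid carrier, at 1267 ± 266, Cpe, a peptide-processing enzyme, at 1054 ± 132 and Sparcl1, a matrix protein, at 782 ± 111. Gfap, the astrocyte filament, held 2360, 2474 and 5113 normalised counts, and replicate 3 stood above the other cultures. The water channel Aqp4 stood at 12 ± 3.67 TPM and Gjb6, a connexin of mature astrocytes, at 0.228 TPM.

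Oligodendrocyte precursor genes passed in 16 of 20 cases, with a median of 15.9 TPM. Serpine2, a protease inhibitor that other cells also make, stood far above the rest at 2310 ± 323 TPM, and other members included Cspg4 (NG2) at 80.2 ± 21 and Xylt1 at 52 ± 3.72. Sox10, the factor of the oligodendrocyte lineage, held 795, 2141 and 1979 normalised counts, with replicate 1 at the low end. Of the genes of myelinating oligodendrocytes 12 of 17 passed, with a median of 5.11 TPM. Their summed level was 339, 462 and 567 TPM in replicates 1, 2 and 3. Mbp stood at 46.9 ± 31 TPM and Mag at 11.1 ± 7.72, while Mog, Opalin and Ermn, genes of mature cells, were each under 0.4 TPM.

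Neuron genes were split. Of 36, 22 passed (61.1%), with a median of 2.01 TPM. The high ones were Gap43 at 635 ± 166 TPM, Stmn1 at 604 ± 125, Stmn3 at 158 ± 18 and Map2 at 106 ± 5.31. They are known to be used by dividing or growing cells as well as by neurons. Among genes of the families below, Tubb3 at 27.3 ± 8.04 TPM, Elavl3 at 15.9 ± 0.525 and Rbfox3 at 1.95 ± 0.403 lay between the high and the low ones. The transmitter transporters Slc32a1 and Slc17a6 and the cortical factor Tbr1 were each under 0.04 TPM, which is at or near 0, and Eomes and Neurod1 were each under 0.2 TPM.

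Other cell types were represented to unequal extents. Of 24 genes of microglia and macrophages 15 passed (62.5%, with a median of 7.82 TPM), with Lyz2 at 101 ± 49.2 TPM and Spp1 at 71.9 ± 23.2. At or above 5 TPM in all 3 cultures were 11 of the 24, a limit for which no share over all genes was computed. Cx3cr1, Tmem119 and P2ry12, which define resting microglia, were each under 1 TPM. Of 13 endothelial genes 3 passed, and Cldn5, Tie1 and Emcn were each under 0.04 TPM. Of 13 pericyte and smooth muscle genes 4 passed, and the leading members Cspg4 and Notch3 are also genes of precursors and stem cells. Of 17 ependymal and motile cilia genes 6 passed, with Tubb4b, a tubulin used in all dividing cells, at 552 ± 78.3 TPM and Foxj1, the master factor of motile cilia, at 26.3 ± 6.02. Mcidas and Gmnc, which start multiciliated cells, were each under 0.06 TPM. Of 10 choroid plexus genes 2 passed. Of 14 fibroblast and meningeal genes 9 passed (64.3%), with a median of 2.34 TPM. In bulk RNA fewer cells of a type and less RNA per cell cannot be told apart.

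Factors of the forebrain were measured about as often as all genes, and those of more posterior regions less often. Of 34 forebrain factors 19 passed, with Lhx2 at 63.7 ± 6.44 TPM, Meis2 at 38.1 ± 1.76 and Nr2f1 at 35.3 ± 2.19. Of 40 factors of midbrain, hindbrain and spinal cord 4 passed (10%) and 23 were listed at 0 in all 3 cultures. The highest of them was Gbx2, with 556, 198 and 298 normalised counts.

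The cultures carried the genes of dividing cells. All 22 S phase genes and all 24 G2 and mitosis genes passed, with medians of 62.8 and 76.0 TPM, led by Pcna, the sliding clamp of DNA replication, at 535 ± 67.5 TPM and by Cdc20, an activator of the anaphase-promoting complex, at 278 ± 7.35. All 20 immediate early genes passed, with Jund at 709 ± 86.9 TPM. Of 28 interferon response genes 17 passed, with a median of 2.92 TPM, and H2-K1, a histocompatibility gene, led at 250 ± 77.3.

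**Figure D2:**
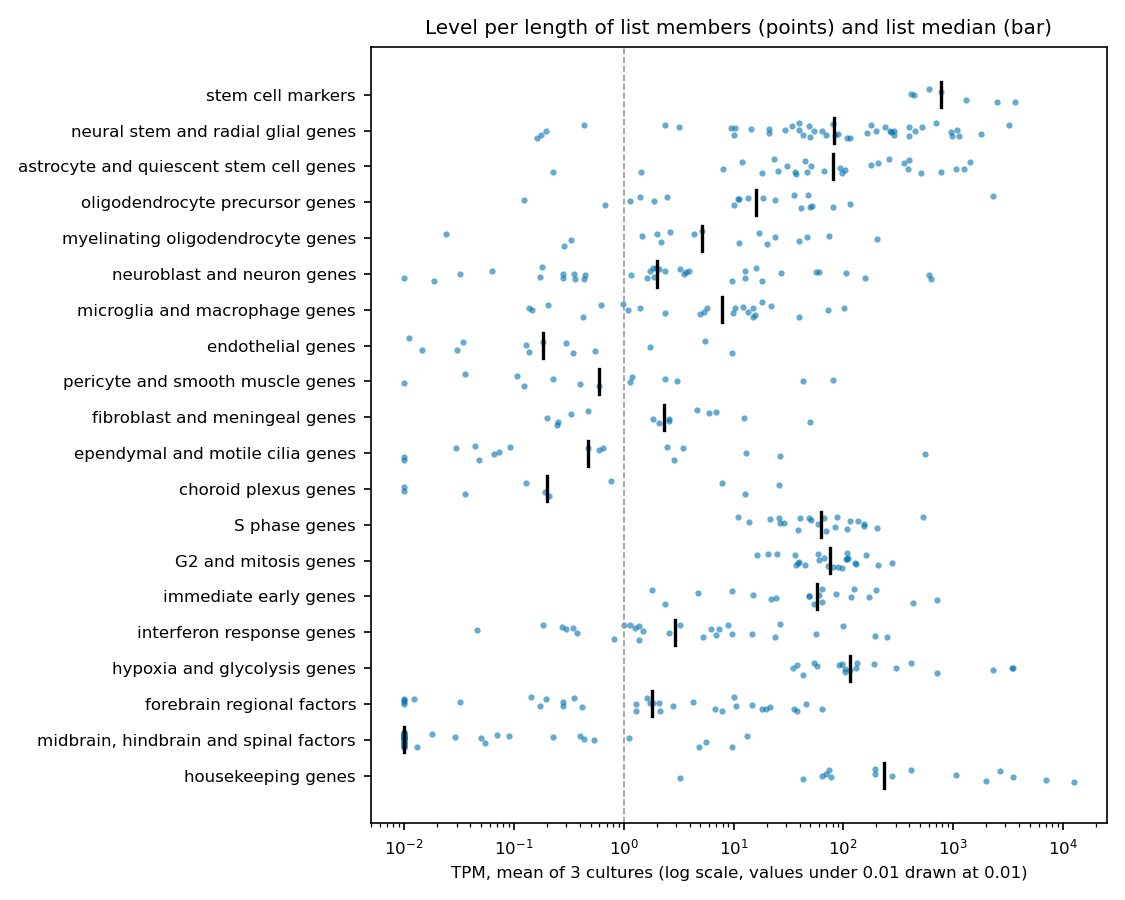
TPM of every member of 20 lists (points, mean of 3 cultures, log scale, values under 0.01 drawn at 0.01), with the list median as a bar and 1 TPM as a dashed line. The 7 stem cell markers lie above 400 TPM, and the median of midbrain, hindbrain and spinal factors is at 0.

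Gene families showed which member the cells used. Of 119 families listed, 117 had a member at or above 1 TPM in all 3 cultures, and SoxF and Lin28 had none. In 98 families 1 member held more than 50% of the family's TPM in every culture, and in 24 it held more than 90%. The leading member was above the next in all 3 cultures in 112 families and the log2 ratio of the pair exceeded 2 SD in 107. These counts are partly set in advance. The leader was picked by its mean over these same 3 cultures, and many families have only 2 members. In such a pair the leader holds at least 50% of the mean TPM by definition.

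Among the Sox factors, Sox2 held 73.1% ± 0.547 of the SoxB1 sum, before Sox3, and Sox8 held 66.6% ± 6.84 of the SoxE sum, before Sox10 and Sox9. Olig1 was above Olig2 by 1.30 ± 0.15 on the log2 TPM scale. Hes6, which is known to oppose Hes1, held 74.6% ± 1.78 of the Hes and Hey sum, and was above Hes1 by 2.32 ± 0.32 on that scale, while Hes5, a direct Notch target, stood at 9.58 TPM. Notch1 led the receptors at 70.2 ± 7.51 TPM before Notch3 at 42.6 ± 9.89, and Dll3 led the ligands at 68.3 ± 17.4 before Dll1 at 36.7. Nfix held 57.7% ± 0.677 of the nuclear factor I sum and Tead2 held 62% ± 1.97 of the TEAD sum. The log2 ratio of Tead2 over Tead1 was 1.11, but 0.070 with mean transcript length and -0.41 with no length.

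Most of the receptor and surface families named here were dominated by 1 member. Egfr, the receptor of one growth factor in the medium, held 71.3% ± 1.83 of the ErbB sum. Fgfr1 held 48.4% ± 4.7 of the FGF receptor sum, with Fgfr3 next. Their log2 ratio was 0.97 ± 0.53, which did not exceed 2 SD. Pdgfra held 97.8% ± 1.21 of its pair and Ntrk2 held 94.7% ± 0.241 of the Trk sum. Slc1a3 held 94.4% ± 0.829 of the glutamate transporters, before Slc1a2. Of the lecticans, Bcan at 701 ± 88.9 TPM and Ncan at 449 ± 68.4 held nearly all. The log2 ratio of this pair was 0.65 ± 0.41, which did not exceed 2 SD, and its order turned when no length was used. Igfbp2 held 84.2% ± 3.84 of the IGF binding proteins.

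Enzymes and chromatin subunits were, in many families, nearly of 1 kind. Ckb held over 99.9% of the creatine kinases, Pkm over 99.9% of the pyruvate kinases and Pgam1 99.9% of the phosphoglycerate mutases. Ldha held 84.9% ± 4.04 of the lactate dehydrogenases and Aldoa 92.4% ± 1.25 of the aldolases. Actl6a, the BAF subunit of progenitors, held 99.6% ± 0.148 of its pair with Actl6b, the subunit of neurons. Ptbp1, the splicing repressor of progenitors, was above Ptbp2 by 2.39 ± 0.22 on the log2 TPM scale. Smarca4 held 77.3% ± 0.901 of the BAF ATPases and Ezh2 held 92% ± 2.59 of the EZH pair.

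Cell cycle families were of both kinds. Ccnd1 held 76.3% ± 1.89 of the D cyclins, Cdk4 99.5% ± 0.0484 of the pair with Cdk6 and Ccna2 98.6% ± 0.369 of the A cyclins. Inhibitors were present too, with Cdkn1a at 550 ± 29 TPM before Cdkn1b and Cdkn2a at 269 ± 15.9 before Cdkn2c. Cdkn2a held 49.5% of the INK4 sum and Rbl2, which led the RB family, held 41.2%.

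Some families had no settled leader. Fabp7 and Fabp5 stood at 2498 ± 216 and 2167 ± 381 TPM, and the order turned between cultures. The order also turned between cultures for Mt3 and Mt1, for Tmsb4x and Tmsb10, for Gli2 and Gli3 and for Zic1 and Zic2. Reads of near-identical copies can be split by the counting, so 2 pairs are uncertain. Of the 50-base windows of Eno1, 70.5% were also in Eno1b, and of those of Tuba1a, 43.4% were in Tuba1b. In Actg1 the share with Actb was 1.58%.

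**Figure D3:**
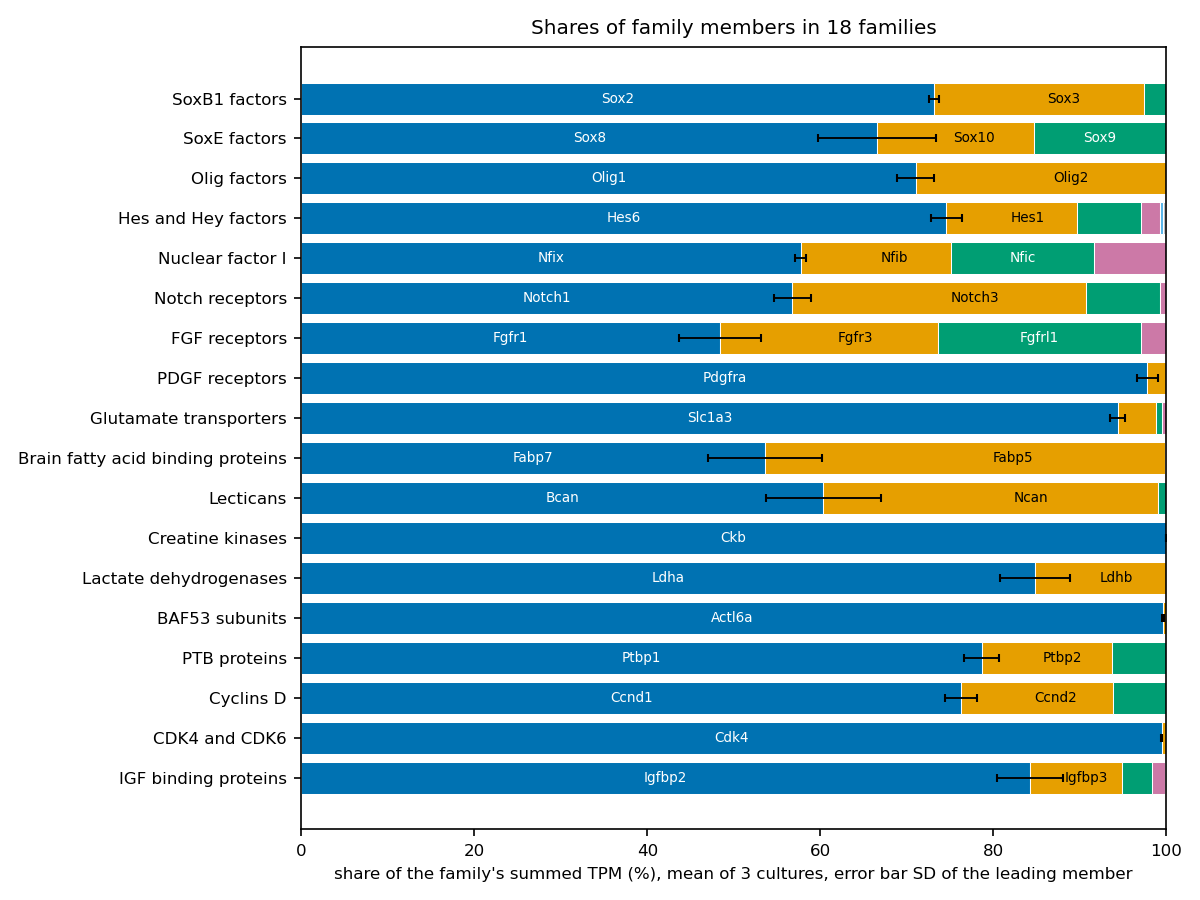
Share of the family's summed TPM held by each member in 18 families (bars, mean of 3 cultures), with the SD of the leading member as an error bar and members over 9% named. Ckb, Cdk4 and Actl6a fill nearly the whole bar, and the bar of Fabp7 and Fabp5 is nearly evenly split.

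The 3 cultures were alike in most genes. Across 14100 genes whose mean was 10 or more, which are not independent replicates, the log2 values correlated at 0.983 between replicates 1 and 2, 0.980 between 1 and 3 and 0.989 between 2 and 3. The median range between the highest and the lowest culture was 1.22-fold, on values with 1 added. The range passed 2-fold in 961 genes (6.82%), and in 279 (2.41%) of the 11560 genes whose mean was 100 or more. Of those 279 genes, replicate 1 was the culture set apart in 203, replicate 2 in 30 and replicate 3 in 46. Replicate 1 lay below both others in 134 of its genes and above both in 69. Without replicate 1 the count of 961 was 257, and without replicate 3 it was 572. The narrowest gene with a mean of at least 100 was Pabpc4, with 4878, 4879 and 4886 normalised counts.

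Genes of hypoxia and glycolysis were lower in replicate 1. All 19 listed genes were lowest there, and 7 of the 19 passed 2-fold (36.8%, against 6.82% over all genes). Among all 13972 genes with a length and a mean of at least 10, 4545 were lowest in replicate 1. Vegfa, the endothelial growth factor, held 16835, 37079 and 37669 normalised counts in replicates 1, 2 and 3. Ddit4, an inhibitor of mTORC1 signalling, held 3574, 9083 and 6857, and Slc2a1, the glucose transporter GLUT1, held 4578, 9650 and 8532. Car9, a carbonic anhydrase, held 318, 1322 and 2368. In all 4 genes replicate 1 was the low culture. Without replicate 1 none of the 19 passed 2-fold. Depth went with this split, since replicate 1 was also the deepest library, and its part in the result was not tested.

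The 250 bases before the start of Slc2a1 and Ddit4 are shown because these 2 genes moved with replicate 1 and hold ACGTG, the core letters of the motif that hypoxia-inducible factors bind. ACGTG and GCGTG were searched on both strands of the whole 300-base promoter and are printed in capitals, as is their reverse complement. The Slc2a1 window is chr4:119108495-119108744 on the plus strand and that of Ddit4 is chr10:59951771-59952020 on the minus strand (RefSeq, GRCm38.p6).
Slc2a1: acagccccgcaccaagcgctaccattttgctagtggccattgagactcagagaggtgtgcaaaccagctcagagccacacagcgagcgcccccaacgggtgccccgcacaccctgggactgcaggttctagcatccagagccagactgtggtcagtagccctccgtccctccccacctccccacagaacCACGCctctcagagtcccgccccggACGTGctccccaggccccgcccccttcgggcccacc
Ddit4: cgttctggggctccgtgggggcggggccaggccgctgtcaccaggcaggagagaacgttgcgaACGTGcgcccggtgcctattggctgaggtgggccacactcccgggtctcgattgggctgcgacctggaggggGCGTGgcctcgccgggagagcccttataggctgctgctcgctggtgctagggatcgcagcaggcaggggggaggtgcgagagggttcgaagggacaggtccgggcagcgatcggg
Of the 19 listed genes 17 had a promoter, and 13 of these (76.5%) held ACGTG, against 19.7% of 27025 promoters. GCGTG was in 9 of the 17 (52.9%), against 32.5% of all promoters. Of the first 100 genes by count with a promoter, 27% held ACGTG and 54% held GCGTG. The Vegfa window held neither motif. The list is rich in known targets of these factors, so the count is a description of the list.

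Genes of myelinating oligodendrocytes were also mostly lowest in replicate 1. Of 14 with a mean of at least 10, 9 passed 2-fold (64.3%), 11 were lowest in replicate 1 and 9 were highest in replicate 3. Among all 13972 genes with a length and such a mean, 4545 were lowest in replicate 1 and 3147 were highest in replicate 3. Mbp, myelin basic protein, held 1773, 4355 and 7857 normalised counts. Mag, a myelin adhesion molecule, held 139, 274 and 585. Trf, transferrin, went the other way with 2052, 786 and 1226. Without replicate 1 the count past 2-fold was 2. Other lists leaned the same way, with 17 of 27 astrocyte and quiescent stem cell genes lowest in replicate 1 and 18 highest in replicate 3, and 9 of 11 fibroblast and meningeal genes highest in replicate 3, counting those with a mean of at least 10.

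Genes of microglia and macrophages were lowest in replicate 3. Of 21 with a mean of at least 10, 10 passed 2-fold (47.6%), 19 were lowest in replicate 3 and 17 were highest in replicate 1. Among all 13972 genes with a length and such a mean, 4783 were lowest in replicate 3 and 7006 were highest in replicate 1. Lyz2, a lysozyme, held 2347, 1848 and 750 normalised counts, and C1qa, a complement chain, held 421, 311 and 122. The summed level of all 24 listed genes was 490, 377 and 240 TPM in replicates 1, 2 and 3. Without replicate 3 none passed 2-fold.

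Genes of division shifted by less. All 22 S phase genes were highest in replicate 1, and their summed level was 2330, 1868 and 2020 TPM in replicates 1, 2 and 3. Their median log2 range was 0.36, against 0.28 over all genes with a length and a mean of at least 10. Of 24 G2 and mitosis genes 19 were highest in replicate 1, with a median log2 range of 0.16. Both counts are to be read against all 13972 genes with a length and a mean of at least 10. Of those, 7006 were highest in replicate 1. None of the S phase, G2 and mitosis genes, of the 16 housekeeping genes or of the 7 markers passed 2-fold.

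**Figure D4:**
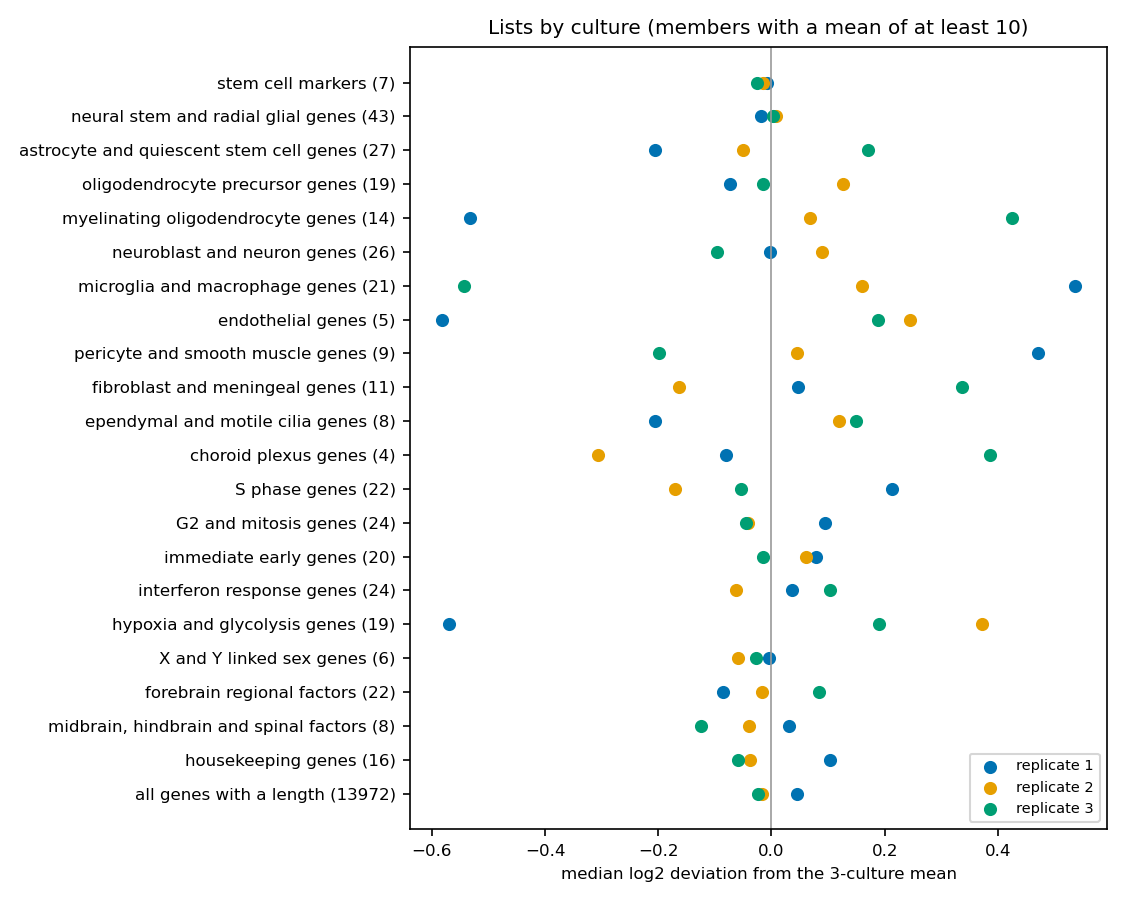
Median log2 deviation of each list's members from their 3-culture mean (x axis), 1 point per culture, with the number of members in brackets. Hypoxia and glycolysis genes lie at -0.57 in replicate 1, and microglia genes lie at 0.54 in replicate 1 and -0.54 in replicate 3.

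The genes of widest range were of several kinds. Ttr, transthyretin, the main secreted protein of the choroid plexus, held 37.9, 0 and 514 normalised counts, so it was listed at 0 in replicate 2. Of the 4 choroid plexus genes with a mean of 10 or more, 2 were highest in replicate 3 and 2 in replicate 2. Xist, the RNA of the inactive X chromosome, held 1107, 87.9 and 68.9, while the Y-linked Ddx3y held 891, 867 and 932 and Eif2s3y held 1050, 999.8 and 1101. Replicate 1 was the high culture for Xist, while Ddx3y and Eif2s3y ranged 1.07-fold and 1.10-fold over the 3 cultures. Xist overlaps Tsix on the opposite strand, and without a stated strand setting reads of both cannot be told apart.

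Clic5, a chloride channel protein, held 3299, 391 and 354, H19, an imprinted RNA, held 144, 1094 and 729, and Col4a6, a basement membrane collagen, held 258, 413 and 18.5. Gdf1, which held 52.1, 733 and 240, overlaps Cers1 on the same strand, and Npcd, which held 47.2, 369 and 287, overlaps Cbx6 and Nptxr on the same strand, so reads of these genes may be shared. Oaz1-ps (2079, 1449 and 0) and Gm5424 (244, 38.7 and 101) are processed pseudogenes, and their reads may come from the parent genes.

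**Figure D5:**
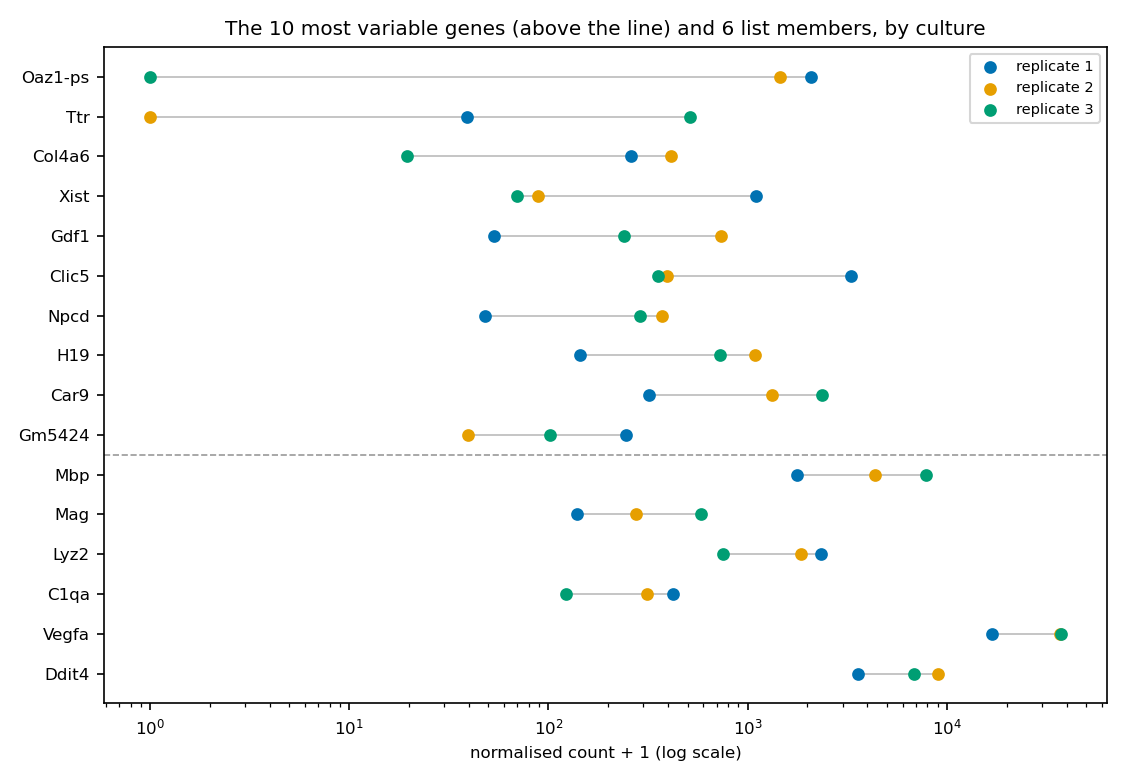
Normalised count plus 1 (x axis, log scale) in each culture for the 10 genes of widest range, above the dashed line, and for 6 list members below it. Replicate 1 is the high point for Xist and Clic5 and the low point for Mbp, Vegfa and Ddit4.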

How the data were processed

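The authors trimmed reads, aligned them to mm10 with STAR and deposited a signal per gene, namely gene counts normalised by the authors with DESeq2. No source used here gave the gene counter, the annotation release or the setting for strand. Only the 3 control columns were used. The column of replicate 2 lacks a digit of its label, which touches its replicate number and not its group. Lengths were the exon unions of GENCODE M21 basic, matched by name for 24464 names and by RefSeq synonym for 44. The other 464 names (0.390% of the totals), 26 of them dates made by a spreadsheet, had no length. TPM was the normalised count per base scaled to 1000000 per library. Fold ranges used a pseudocount of 1, a minimum mean of 10 and a limit of 2-fold. Family log2 ratios used 0.01 TPM as pseudocount. Scripts ran in Python 3.11.15 with pandas 2.3.3 and were tested on simulated data. p-values were not computed, because a single group holds no comparison.

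The members, lists and families were chosen with earlier results of these data known. The genes named were the 7 markers, the 20 highest by count, the 10 highest by level per length, the 4 highest of each list with defining members at or near 0, the leading and next member of families, the 10 widest and 5 narrowest in range with a mean of at least 100, Tsc2 and Tsc1. Some genes that this rule selects are not reported here. Malat1, Gfap, Aqp4, Sox10, Mag, Ddit4, Sox9, Hes5 and Tubb3 fall outside this rule, and their choice came after seeing the values.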

Additional observations from a re-analysis of the deposited data

How the results depend on the processing

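With genes filtered at a mean of 1 or 100, with equal totals or without any 1 culture, the count of expressed genes stayed within 1.5 times of 14100. The median of the 7 markers was 1079 TPM with mean transcript length. At 5 TPM, 7 of 17 myelin, 12 of 36 neuron, 1 of 13 endothelial, 2 of 13 pericyte and 3 of 14 fibroblast genes passed. So did 3 of 17 ependymal, 1 of 10 choroid plexus, 11 of 28 interferon, 11 of 34 forebrain and 2 of 40 posterior genes. The share of all genes at or above 5 TPM was not computed, so these counts have no background beside them. Genes past 2-fold numbered 573 with a pseudocount of 10, 279 at a mean of 100, 2858 with no minimum, and 257 to 660 when 1 culture was left out. The leading member turned without length correction for Tead2 over Tead1 (log2 ratio -0.41), Gli2 over Gli3 (-0.074), Tcf3 over Tcf12 (-0.57), Foxo4 over Foxo3 (-0.42), Bcan over Ncan (-0.55), Phf10 over Dpf2 (-0.25), Calm2 over Calm3 (-0.039) and Mt3 over Mt1 (-0.18), and in the HP1 proteins Cbx5 took the lead from Cbx3. With mean transcript length it turned for Gli2 (-0.69), Foxo4 (-0.32), Tmsb4x over Tmsb10 (-0.18) and Hmgb2 over Hmgb1 (-0.40), and the E proteins had another leader than Tcf3, and with the longest transcript for Tmsb4x (-0.080), Elavl1 over Elavl3 (-0.10) and Eif4e over Eif4e2 (-0.014). Without replicate 1 it turned for 3 pairs, and leaving out each culture gave -0.0039 to 0.36 for Fabp7 over Fabp5, -0.0054 to 0.26 for Tmsb4x over Tmsb10 and -0.14 to 0.19 for Mt3 over Mt1. No paired analysis was possible because no groups were compared. Fewer reads in replicates 2 and 3 limit the precision of low genes there.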
